A study of Rattus norvegicus with 4 samples.

Results

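Messenger RNA levels of 8 genes of estrogen signaling were examined in the hippocampus of newborn Wistar rats after prenatal exposure to bisphenol A (BPA), a building block of polycarbonate plastic that can bind several of their products. The genes were taken by symbol and are the estrogen receptors Esr1 and Esr2, the membrane estrogen receptor Gper1, the progesterone receptor Pgr, the aromatase gene Cyp19a1, and the estrogen-related receptors Esrra, Esrrb and Esrrg. Each of the 8 had 1 row with a gene ID in all 4 libraries, out of 16375 rows listed in all 4, and none of the 3461 new gene models in the files had one of these proteins as its best match. Pregnant dams, 10 weeks old according to the sample records, received BPA at 5000 µg/kg body weight or vehicle every day from gestation day 1 until they gave birth. The hippocampus was taken from the pups on postnatal day 1, and there was 1 RNA-seq library for each of 4 groups (control and BPA pups of either sex), each made from 3 pooled hippocampi. A pool hides the spread between pups, no group had a second library, and males and females were compared within the same scheme because the study asked whether the response to BPA differs between the sexes.

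Estrogen receptors alpha and beta are transcription factors that bind estradiol and then act on estrogen response elements in DNA, whereas Gper1 is a G-protein coupled receptor that signals from membranes. Aromatase makes estradiol from androgens, and in the perinatal rodent brain estradiol formed from testicular androgen takes part in sexual differentiation. The progesterone receptor gene is a classical target of estrogen receptor alpha in reproductive tissues, and the estrogen-related receptors share the DNA-binding design of the estrogen receptors but bind no known natural estrogen and act with PGC-1 coactivators on genes of mitochondrial metabolism.

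In these libraries the estrogen-related receptor Esrra was by far the most abundant of the 8 transcripts, and the receptors that bind estradiol were scarce. Esrra averaged 10.2 ± 1.17 FPKM (SD over the 4 libraries), near the middle of all genes, whereas Esr1 averaged 0.575 ± 0.220 FPKM and Esr2 was at 0 or 1 fragment in every library. FPKM counts sequenced fragments relative to the length of the gene model and the depth of the library. A difference between BPA and control pups was not detectable for any of the 8 genes, in males, in females or in both together. Of the 8 genes, 5 (Gper1, Esr1, Cyp19a1, Esrrb and Esr2) were counted by at most 16 fragments per library. Esrra and Esrrg were lower in both female libraries than in both male libraries, but this difference did not pass the test across all genes.

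The libraries held an estimated 8660000 to 8925000 fragments. This depth was read from the low values, which lie on steps of whole fragments, and it allowed each FPKM to be turned back into fragments. At this depth 1 fragment is worth 0.0557 FPKM for Esr1 and 0.0155 FPKM for the much longer Pgr transcript in the male control library. The label hippocampus was checked on 9 markers of hippocampal neurons found in all libraries, whose summed level was 384 to 435 FPKM. The summed level of the 7 of 16 hypothalamic markers listed in all libraries was 3.94 to 5.76 FPKM. No list of neocortical markers was among the 11, so this check could not tell hippocampus from neocortex. In such bulk tissue fewer cells of a type and less RNA per cell cannot be told apart. The libraries differed in markers of neighbouring tissue. The 12 markers of meninges and vessel wall summed to 382 FPKM in female control against 93.7 to 110 FPKM in the other libraries. The 8 markers of choroid plexus summed to 268 FPKM in control and 711 FPKM in BPA males, against 11 and 49.0 FPKM in the corresponding female libraries. Most of this sum in males was Ttr alone, at 256 and 690 FPKM, against 3.96 and 42.4 FPKM in control and BPA females. Folr1, Clic6, Kl and Aqp1 were also higher in both male libraries, at low levels. For Kcnj13, Otx2 and Kcne2 the male and female libraries overlapped.

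**Figure D1:**
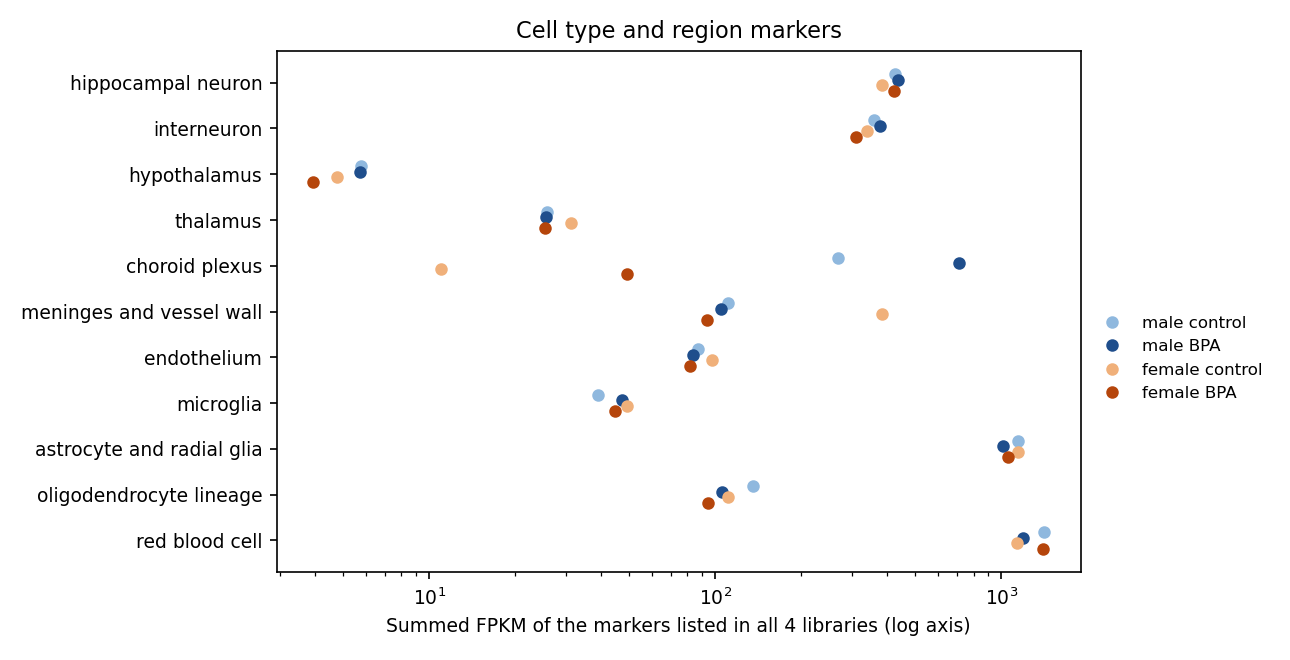
Summed FPKM (log axis) of the markers of 11 cell types or regions in each library, 1 point per library. Hippocampal neuron markers lie close together at 384 to 435 FPKM, and female control stands apart for meninges and vessel wall at 382 FPKM. The male libraries exceed the female libraries for choroid plexus, mostly through Ttr.

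The order of the 8 levels, compared per length, was Esrra, Esrrg, Pgr, Gper1, Esr1, Cyp19a1, Esrrb and Esr2. Esrra stood 4.73 times above Esrrg by the means, and the ranges of the 4 libraries did not overlap between these neighbours, nor between Esrrg and Pgr, Pgr and Gper1, or Esr1 and Cyp19a1. Gper1 was above Esr1 in 3 of 4 libraries, with overlapping ranges. The ranges of Cyp19a1 and Esrrb overlapped too, although Cyp19a1 was the higher in all 4 libraries. Esrrb was listed above Esr2 in all 4 libraries, but both rest on 0 to 3 fragments, so that their order was not resolved at this depth. The 3 estrogen-related receptors together made up 77.5% to 80.3% of the summed FPKM of the 8 genes in each library. Among 13171 rows with a gene ID, 51.9% had a lower mean than Esrra, 24.6% a lower mean than Esrrg and 21.5% a lower mean than Pgr. For the other members the share was 16.5% for Gper1, 13.6% for Esr1, 8.75% for Cyp19a1, 5.05% for Esrrb and 0.319% for Esr2.

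**Figure D2:**
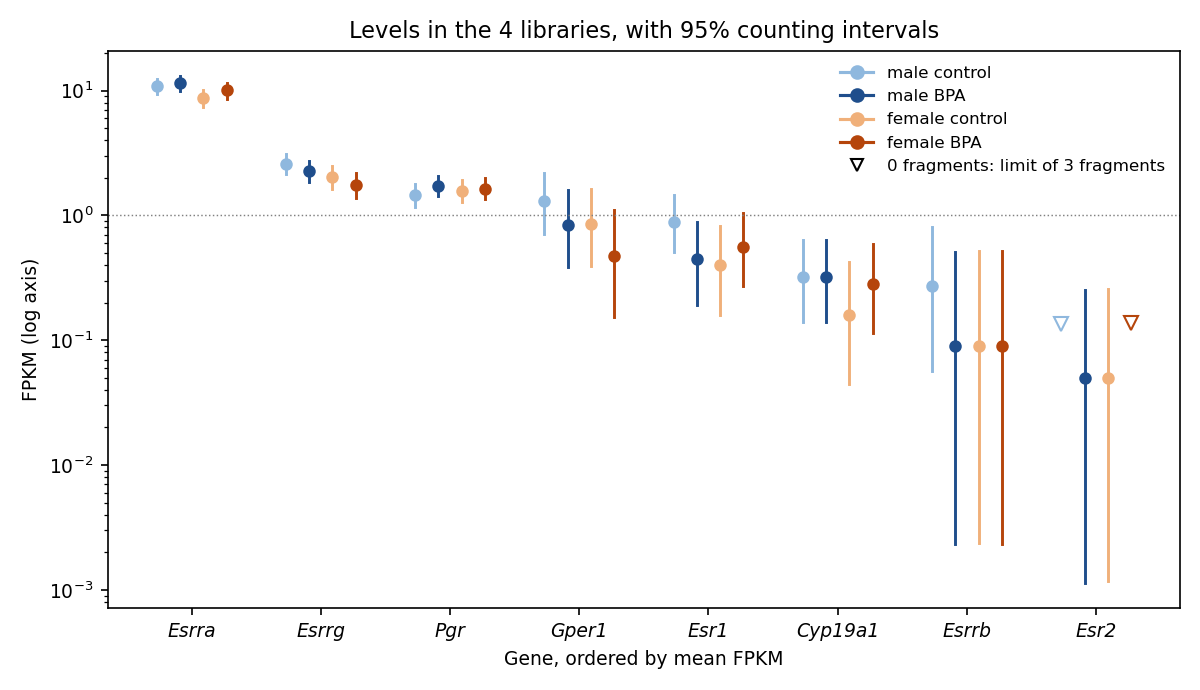
FPKM (log axis) of the 8 genes in each library, 1 point per library, with the exact 95% Poisson interval of its estimated fragments as a line and a dotted line at 1 FPKM. Esrra lies near 10 FPKM in all 4 libraries, and the intervals widen as the levels fall, up to Esr2, where open triangles mark the limit that a count of 0 fragments allows.

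Promoter sequence was available in RefSeq (assembly GRCr8) for 6 of the 8 genes, not including Gper1 and Cyp19a1, and is shown for 3 genes that span the range of levels: Esrra as the most abundant, Pgr as the best measured receptor for an ovarian steroid, and Esrrb as a gene near the limit of detection. Only bases outside the annotated gene were printed, which leaves 123 of the 250 bases before the Esrra start (chr1:213543433-213543555, minus strand), and all 250 for Pgr (chr8:14354148-14354397, plus strand) and Esrrb (chr6:111738412-111738661, plus strand). Capitals mark CpG dinucleotides, and each sequence runs 5′ to 3′.
Esrra: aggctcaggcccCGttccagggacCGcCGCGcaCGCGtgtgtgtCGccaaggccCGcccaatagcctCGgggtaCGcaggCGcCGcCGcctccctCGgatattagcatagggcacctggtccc
Pgr: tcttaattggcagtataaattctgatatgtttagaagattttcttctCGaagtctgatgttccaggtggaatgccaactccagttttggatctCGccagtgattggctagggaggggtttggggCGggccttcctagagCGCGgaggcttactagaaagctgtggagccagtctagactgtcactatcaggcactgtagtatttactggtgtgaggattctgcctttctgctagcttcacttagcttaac
Esrrb: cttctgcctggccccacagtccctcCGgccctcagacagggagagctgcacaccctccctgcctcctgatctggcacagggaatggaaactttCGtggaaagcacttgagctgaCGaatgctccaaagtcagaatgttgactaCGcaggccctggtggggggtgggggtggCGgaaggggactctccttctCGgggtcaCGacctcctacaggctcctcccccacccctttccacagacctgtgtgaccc

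Over the whole 250 bases before the start, the Esrra promoter held 26 CpG dinucleotides, more than 91.4% of 33469 RefSeq promoters of that length. The Pgr promoter held 5, equal to the median of all promoters, and those of Esrrb, Esr1 and Esr2 held 7, 8 and 14. Esrrg has 4 annotated starts, with 8 to 35 CpG dinucleotides before them, and the files do not say which start was used. The perfect palindromic estrogen response element (GGTCA and TGACC with any 3 bases between them) was in none of these windows and in 0.0239% of all promoters, searched on both strands. The estrogen-related receptor element (TCAAGGTCA) was in none of them either and in 0.388% of all promoters. The hexamer AGGTCA, which both longer motifs can contain in part or whole, occurred once, before 1 of the 4 Esrrg starts, and in 14.1% of all promoters. A missing match says only that these letters are not in these windows.

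BPA and control pups were compared for each gene within males, within females, and with both sexes together. With 1 library per sex and treatment no test is possible within a sex, so the ratio of estimated fragments is given there with an exact 95% interval that covers counting error only, and a change was called when log2(FPKM + 1) differed by more than 1. For both sexes together, 2 BPA libraries were set against 2 control libraries with limma across the 13542 rows that averaged 1 FPKM or more, which 3 of the 8 genes (Esrra, Esrrg and Pgr) passed. In limma 0% of the 13542 rows had a Benjamini-Hochberg adjusted p under 0.05, and 637 rows (4.7%) an unadjusted p under 0.05, none of them one of these 3 genes. A difference of log2(FPKM + 1) by more than 1 was found in 1.69% of these rows in males and in 2.16% in females, and in 0 of the 3 members among them in either sex. The other 5 members averaged under 1 FPKM and were poorly read by this measure. It leaves a gene with a control level under 1 FPKM no room to fall by more than 1. Of the 5, only Gper1 in males had a higher control level, at 1.30 FPKM, and it differed by -0.32. Rises were not limited in this way, and 0 of the 8 genes were past 1 in either sex. The male and female changes had the same sign for 4 of the 8 genes, against 53.8% of all rows, and opposite signs for 2 (Esr1 and Esr2), against 42.9%. No interval of a BPA to control ratio left out 1 for any of the 8 genes. Esrrb and Esr2 add little to this count, since their few fragments make these intervals very wide. The 2 BPA libraries lay wholly above or below the 2 control libraries for 2 of the 8 genes (Pgr and Gper1), against 33.3% of all 16375 rows.

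Esr1, which encodes estrogen receptor alpha, was at 0.89 FPKM in control and 0.45 FPKM in BPA males, and at 0.40 FPKM in control and 0.56 FPKM in BPA females. These values stand for 16, 8, 7 and 10 fragments. Male control was thus the highest library and the other 3 lay close together, with BPA and control libraries overlapping. The male ratio of BPA to control was 0.50 (95% interval 0.185 to 1.24) and the female ratio 1.42 (0.486 to 4.38), and their opposite directions were not tested, since 4 libraries leave no degree of freedom for it. With no filter on low values, limma gave a log2 difference of -0.11 (SE 0.182, adjusted p 0.956) for both sexes together. Of the 7 hypothalamic markers listed in all libraries, 3 were likewise highest in the male control library, namely Avp (vasopressin), Pomc (proopiomelanocortin) and the transcription factor Nkx2-1, at 1.09, 1.38 and 1.70 FPKM against at most 0.44, 0.51 and 1.42 FPKM in the other libraries. Avp, Pomc and Nkx2-1 averaged only 0.44, 0.725 and 1.20 FPKM, and no counting interval is given for them. The other 4 (Trh, Crh, Sim1 and Ghrh) were at their lowest or tied for it in male control. The sum of all 7 was 5.76 FPKM in control and 5.74 FPKM in BPA males and 4.75 FPKM in control and 3.94 FPKM in BPA females, and their part in the Esr1 values was not tested.

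Esr2, which encodes estrogen receptor beta, was at the lowest listed value of 0.01 FPKM in male control and female BPA, and at 0.05 FPKM in male BPA and female control. The last 2 values stand for 1 fragment each, and a count of 0 allows up to 0.136 FPKM in male control and 0.138 FPKM in female BPA. Expression of Esr2 was therefore at the limit of detection in all 4 libraries, and no change could be read from it.

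Gper1 measured 1.30 FPKM in control and 0.84 FPKM in BPA males, and 0.85 FPKM in control and 0.47 FPKM in BPA females, or 14, 9, 9 and 5 fragments. Both BPA libraries lay below both control libraries, by the narrow margin of 0.84 against 0.85 FPKM. The ratio of BPA to control was 0.645 (0.246 to 1.60) in males and 0.551 (0.145 to 1.83) in females. For both sexes together 14 fragments stood against 23, a ratio of 0.607 (0.289 to 1.23), and with no filter limma gave a log2 difference of -0.33 (SE 0.190, unadjusted p 0.154, adjusted p 0.905). On the log2(FPKM + 1) scale Gper1 had the largest difference of the 8 genes in this comparison, and it stayed within the counting error of these libraries.

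Pgr, the receptor of progesterone and a gene that estrogen receptor alpha controls in other tissues, was at 1.46 FPKM in control and 1.72 FPKM in BPA males, and at 1.58 FPKM in control and 1.64 FPKM in BPA females. Its long transcript gave 94, 112, 100 and 105 fragments, so that it was measured far more closely than Esr1 or Gper1. All 4 libraries lay within 1.46 to 1.72 FPKM, both BPA libraries above both control libraries. The ratio of BPA to control was 1.19 (0.894 to 1.58) in males, 1.04 (0.782 to 1.38) in females and 1.11 (0.911 to 1.35) in both together, and limma gave a log2 difference of 0.09 (SE 0.228, adjusted p 0.988). Pgr was the gene with the narrowest relative spread of the 8, with an SD of 0.110 FPKM around a mean of 1.60 FPKM.

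Cyp19a1, the gene for aromatase, was at 0.32 FPKM in control and BPA males alike, at 0.16 FPKM in control and at 0.28 FPKM in BPA females, or 8, 8, 4 and 7 fragments. The female control library was the lowest. The ratio of BPA to control was 0.999 (0.327 to 3.05) in males and 1.73 (0.441 to 8.07) in females. With no filter, limma gave a log2 difference of 0.07 (SE 0.108, adjusted p 0.953) for both sexes together.

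Among the estrogen-related receptors, Esrra was at 10.8 FPKM in control and 11.4 FPKM in BPA males, and at 8.71 FPKM in control and 10.01 FPKM in BPA females, or 203, 214, 160 and 185 fragments. The BPA library was the higher one in each sex, but the BPA and control libraries overlapped. The ratio of BPA to control was 1.05 (0.866 to 1.28) in males and 1.15 (0.922 to 1.42) in females, and limma gave a log2 difference of 0.13 (SE 0.154, adjusted p 0.974) for both together. Leaving out single libraries moved the difference between -0.02 (without female control, adjusted p 0.997) and 0.27 (without male control), with 0.21 without female BPA and 0.04 without male BPA.

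Esrrg, which in the adult brain is a neuronal member of the family, was at 2.60 FPKM in control and 2.28 FPKM in BPA males, and at 2.04 FPKM in control and 1.74 FPKM in BPA females, or 122, 107, 93 and 81 fragments. The BPA library was the lower one in each sex, opposite to Esrra. The ratio of BPA to control was 0.874 (0.668 to 1.14) in males and 0.862 (0.632 to 1.17) in females, and limma gave a log2 difference of -0.14 (SE 0.228, adjusted p 0.985) for both together. It was -0.01 without female BPA and -0.02 without male control, and -0.26 and -0.27 without female control and without male BPA. The ratio of the Esrra level to the Esrrg level was 4.16 in control and 5.01 in BPA males, and 4.27 in control and 5.75 in BPA females.

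Esrrb, known from pluripotent stem cells and the inner ear, was at 0.27 FPKM in male control and at 0.09 FPKM in each of the other libraries, which stands for 3 fragments and for 1 fragment. As with Esr2, no ratio is given at this depth.

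**Figure D3:**
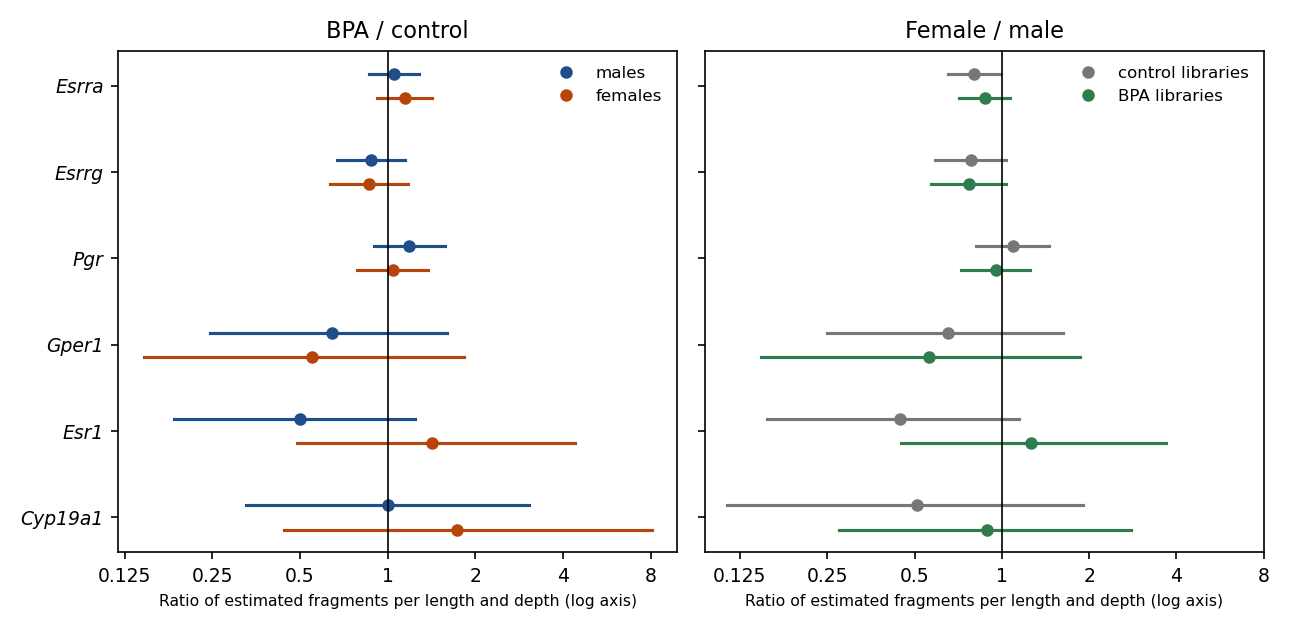
Ratios of estimated fragments per length and depth (log axis) for the 6 genes above the limit of detection, BPA to control in each sex on the left and female to male in each treatment on the right, with exact 95% counting intervals as lines. All BPA to control intervals hold 1, and on the right the female control to male control interval of Esrra ends just under 1, at 0.994.

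Female and male pups were then compared, 2 libraries against 2. In limma 1 of 13542 rows (0.00738%) had an adjusted p under 0.05, none of the 8 genes, and 1442 rows (10.6%) an unadjusted p under 0.05, again none of the 3 members tested. Female and male libraries did not overlap for 3 of the 8 genes (Esrra, Esrrg and Cyp19a1), against 38.9% of all 16375 rows, with the female libraries lower in each case. For Esrra the ratio of female to male fragments was 0.804 (0.650 to 0.994) in the control libraries, 0.875 (0.714 to 1.07) in the BPA libraries and 0.841 (0.727 to 0.972) in both together. For Esrrg it was 0.780 (0.589 to 1.03), 0.769 (0.569 to 1.04) and 0.775 (0.632 to 0.948). These intervals cover counting error only, and over libraries limma gave log2 differences, female minus male, of -0.23 (SE 0.130, adjusted p 0.579) for Esrra and -0.25 (SE 0.216, adjusted p 0.722) for Esrrg. Esr1 had a ratio of 0.446 (0.155 to 1.15) between the control libraries and 1.26 (0.449 to 3.69) between the BPA libraries, and Cyp19a1 had 0.700 (0.294 to 1.60) over both. Pgr was nearly equal, with 205 fragments in females and 206 in males, a ratio of 1.02 (0.833 to 1.24).

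The genes around the receptors were described by 6 lists. In limma 0 of their genes passed an adjusted p under 0.05 for BPA against control, 0 had an unadjusted p under 0.05 with a higher level (1.6% of all rows), and 3 had one with a lower level (3.11% of all rows). None of those tested differed by more than 1 in either sex. Enzymes and carriers of steroid synthesis and metabolism were mostly lower with BPA. Of the 17 genes with a mean of at least 1 FPKM, 13 were lower with BPA in both sexes and 1 was higher in both, where 31.6% of all rows were lower and 24.4% higher in both. Its median log2 difference was -0.19 in males and -0.18 in females, beside -0.00 and -0.04 over all rows. In males alone 16 of the 17 were lower, against 50.4% of all rows, and in females 13, against 56.5%. After quantile normalization 9 of the 17 were lower in both sexes, with medians of -0.19 and -0.13, against 27.9% of all rows. Some marker lists of other cell types leaned the same way, with 5 of 6 markers of astrocytes and radial glia (medians -0.18 and -0.32), 4 of 5 of endothelium, 6 of 10 of interneurons and 7 of 12 of meninges and vessel wall lower in both sexes. Their part in the values of the list was not tested.

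Cyp1b1, which hydroxylates estradiol, was at 7.19 FPKM in control and 5 FPKM in BPA males, and at 9.40 FPKM in control and 6 FPKM in BPA females. Its log2 difference was -0.51 (SE 0.179), and it was the only gene of the list with an unadjusted p under 0.05 in limma (0.0262, adjusted 0.973). The female control library, where Cyp1b1 was highest, also had the most meningeal markers. In males Cyp1b1 differed by -0.45 on the log2 scale, and the meningeal markers Col1a1, Col3a1 and Lum by -0.65, -0.61 and -0.55, while Ptgds differed by 0.46 and the sum of all 12 markers was 110 FPKM in control and 105 FPKM in BPA males. The part of these cells in the Cyp1b1 values was not tested. Fdxr, the reductase that feeds electrons to mitochondrial P450 enzymes, went from 6.68 FPKM in control to 5.06 FPKM in BPA males and from 7.02 to 5.29 FPKM in females. Por, the reductase that serves aromatase and other microsomal P450 enzymes, stood at 29.9 and 27.3 FPKM in control and BPA males, and at 30.6 and 24.9 FPKM in the females. Shbg, the plasma carrier of sex steroids, stood at 2.31 and 1.07 FPKM in males and 1.81 and 1.26 FPKM in females. Of 6 genes of the 17-beta-hydroxysteroid dehydrogenase family tested, 5 (Hsd17b4, Hsd17b7, Hsd17b8, Hsd17b10 and Hsd17b11) were lower with BPA in both sexes, with log2 differences of -0.19 in males and -0.25 in females for the abundant Hsd17b10. The sixth, Hsd17b12, differed by -0.17 in males and by 0.16 in females. None of these genes had an unadjusted p under 0.05 in limma.

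Coregulators, the proteins through which these receptors act on transcription, leaned the other way. Of 17 tested, 9 were higher with BPA in both sexes and 3 lower in both, with a median log2 difference of 0.10 in either sex. The female median was 0.06 after quantile normalization and 0.05 as TPM. In males alone 13 of 17 were higher, against 49.2% of all rows, and in females 10, against 43.2%. Ppargc1a, which encodes the PGC-1 alpha coactivator of Esrra and Esrrg, was at 4.17 FPKM in control and 5.70 FPKM in BPA males, with 5.92 and 6.28 FPKM in the females. Pprc1, a relative of PGC-1, was at 8.59 and 10.5 FPKM in males and 8.17 and 10.6 FPKM in females (log2 difference 0.30, SE 0.128, adjusted p 0.973). Nrip1, a corepressor that estrogen induces in breast cells, was at 7.84 and 8.63 FPKM in males and 7.52 and 9.96 FPKM in females. Among the most abundant members, Prmt1 lay within 151 to 162 FPKM, Phb2 within 97.8 to 108 FPKM and Ncoa1 within 54.4 to 57.9 FPKM.

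Known targets of the estrogen receptors were split in direction. Of 14 tested, 6 (42.9%) were lower with BPA in both sexes and 4 (28.6%) higher in both, against 31.6% and 24.4% of all rows. The medians were -0.00 in males and -0.05 in females. They turned to 0.01 in males as TPM and to 0.02 in females after quantile normalization. Ccnd1, which encodes cyclin D1, was at 14.7 FPKM in control and 10.4 FPKM in BPA males, with 14.3 and 10.7 FPKM in the females, a log2 difference of -0.43 (SE 0.120, unadjusted p 0.00975, adjusted p 0.973 in limma). Xbp1, a transcription factor of the unfolded protein response, was at 56.5 and 47.7 FPKM in males and 56.8 and 44.7 FPKM in females, a log2 difference of -0.29 (SE 0.0982, unadjusted p 0.0226, adjusted p 0.973). Both BPA libraries were below both control libraries for either gene, and BPA and control libraries did not overlap in 33.3% of all 16375 rows. Ret and Igfbp4 were lower with BPA in each sex by at most 0.40 on the log2 scale, and Ctsd, which encodes cathepsin D, stayed within 68.6 to 73.9 FPKM.

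For targets of the estrogen-related receptors, mostly enzymes of the citric acid cycle and the respiratory chain, the direction depended on the scaling. Of 26 tested, 9 (34.6%) were lower and 4 (15.4%) higher with BPA in both sexes, against 31.6% and 24.4% of all rows. In males alone 18 were lower and in females 13, against 50.4% and 56.5% of all rows. The medians were -0.05 in males and 0.00 in females, the latter -0.05 after quantile normalization and as TPM. Under these scalings 14 and 15 of the 26 (53.8% and 57.7%) were lower in both sexes, against 27.9% and 34.6% of all rows. Atp5f1b, the beta subunit of ATP synthase, lay within 564 to 609 FPKM, and Slc25a4, the ADP/ATP carrier, within 360 to 388 FPKM. Pdk4, which inhibits pyruvate dehydrogenase, and Cpt1b, a carnitine palmitoyltransferase, had the widest ranges at low levels, 0.74 to 1.93 FPKM and 1.48 to 2.67 FPKM, both with their highest value in female control.

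The 9 chaperones that hold unliganded steroid receptors had medians of -0.03 in males and 0.06 in females, with 2 lower and 3 higher in both sexes. Hsp90ab1 lay within 767 to 827 FPKM and Fkbp5, an immunophilin of the receptor complex, within 12.6 to 15 FPKM. Of 12 genes of membrane estrogen signaling, 4 (33.3%) were lower and 0 higher in both sexes, against 31.6% and 24.4% of all rows. Their medians were -0.02 in males and -0.10 in females. Cav1, the caveolin that anchors membrane receptors, was at 9.44 and 8.51 FPKM in males and 12.7 and 8.91 FPKM in females, again highest in female control.

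**Figure D4:**
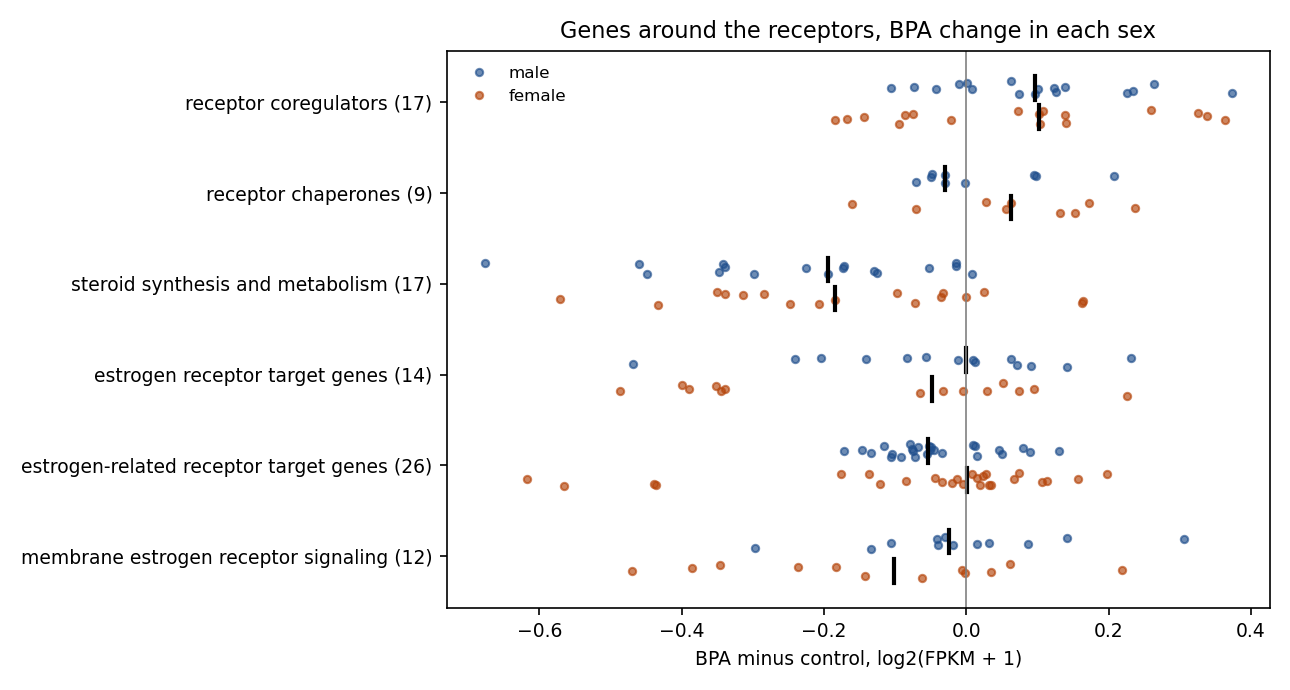
Difference in log2(FPKM + 1) between BPA and control for the genes of 6 lists with a mean of at least 1 FPKM, 1 point per gene and sex, with list sizes in parentheses and black bars at the medians. The points for steroid synthesis and metabolism lie mostly left of 0 in both sexes, with medians of -0.19 and -0.18, and those of the coregulators lean right, with medians of 0.10.

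The genes most like the 3 members above 1 FPKM were sought among rows with an approved symbol and a mean of at least 5 FPKM, by Pearson's r of log2(FPKM + 1) over the 4 libraries. Gfpt2 and Nudcd2 were closest to Esrra, Ndufb6 and Vrk3 to Esrrg, and Eif2ak3 and Rnf19a to Pgr, with r of 0.9996 or more. With 4 points such values are common: 348 rows (4.27%) reached an r of 0.95 with Esrra, 427 (5.23%) with Esrrg and 126 (1.54%) with Pgr. Gfpt2 lay within 7.36 to 8.26 FPKM and Ndufb6 within 81.1 to 88.3 FPKM.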

How the data were processed

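RNA was extracted from pooled neonatal hippocampi and sequenced, with 1 library per group. The authors deposited 1 FPKM value per gene and library, to 2 decimals, with the length of each gene model. The submitters' processing notes name HISAT 0.1.6, Bowtie2 2.2.5, RSEM and the build rn6, without their roles, and the annotation is not given in the sources used here. Promoters came from RefSeq (GRCr8) and carry no coordinates of the files' build.

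The depth of a library was taken as the fragment number that best turns the low values (up to 8 fragments, annotated genes of 300 to 1500 bases) into whole numbers. With 60 to 80 bases taken off the length, 94.8% to 98.5% of these values lay within 0.15 of a whole number, where evenly spread values would give 30%. RSEM can assign parts of fragments, so the fragments are estimates, and their exact Poisson and conditional 95% intervals cover counting error only. A count of 0 was taken to allow 3 fragments.

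Differences were computed on log2(FPKM + 1), which understates changes of low genes. Rows in all 4 files with a mean of at least 1 FPKM were tested with limma 3.58.1 (R 4.3.3, eBayes with trend) and Benjamini-Hochberg adjustment. BPA was compared with control over both sexes and females with males over both treatments, so the p-values rest on 2 libraries against 2 that also differ in sex or treatment, and measure only the spread between these pools. An exact permutation of 2 against 2 cannot give a two-sided p under 0.333. Other steps used Python 3.11.15. Both procedures were tested on simulated data. The alternatives were other filters and pseudocounts, quantile normalization, TPM, the other factor as a block, and leaving out each library. The 6 gene lists and 11 marker lists, and the rule for naming genes in them (the 3 most abundant, the 3 with the largest mean change and any past a log2 difference of 1), were written with earlier results of these data known, as were the 8 members.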

Additional observations from a re-analysis of the deposited data

Results flagged for a closer look

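Male and female libraries moved in opposite directions for 2 of the 8 genes. For Esr1 the BPA change on log2(FPKM + 1) was -0.38 in males and 0.16 in females, and the female change exceeded the male change by 0.54. For Esr2 the changes were 0.06 and -0.06, a difference of -0.11 that rests on 1 fragment in each direction. Neither difference was tested, since each sex had 1 library per treatment, and 42.9% of all 16375 rows had opposite signs in the sexes.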

How the results depend on the processing

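Esrra, Esrrg and Pgr were not called under any alternative with all 4 libraries. Their adjusted p values in limma were at least 0.794 for BPA against control and 0.457 for female against male. Leaving out a library leaves 1 library in an arm, so only effect sizes are given there. The other 5 members were fitted without a filter only. Of 28 alternative values each, 27 and 26 kept their direction. The exceptions were Esrra without female control (-0.02 for BPA minus control) and Pgr without female BPA or without male control (-0.00 and -0.06 for female minus male). Other filters and the block leave the difference of a gene as it is, so the values under them could not change direction. All 40 values within a sex moved by less than their counting interval, as did all 64 levels at other depths. Both outcomes were largely fixed in advance. The fragment ratio lies within its own interval, and the depths tried were close together (8690000 to 9080000 fragments in male control). Quantile normalization took the female change of Esrrg from -0.15 to -0.03 and that of Pgr from 0.03 to 0.17. The counts over all rows moved more. BPA against control gave 0 rows, and 2 with sex as a replicate block. Female against male gave 1 row, 55 with treatment as a replicate block, 21 at a mean of at least 5 FPKM, and 9 after rescaling to TPM. At an unadjusted p under 0.05 limma gave 637 and 1442 rows, and 1216 and 1940 with the blocks. In males 229 rows were past a log2 difference of 1, against 28 at a mean of at least 5 FPKM, 491 with a pseudocount of 0.1 and 371 as TPM. In females 293 rows were past it, against 60, 580 and 464, and the share of higher rows among them was 43.3%, against 54.7% after quantile normalization. The causes were not tested. Sums with new gene models could not change a member, since none matched. The counts by direction in the lists were repeated in males alone after the data were seen, to leave out female control. Depth limits Esr1, Gper1 and Cyp19a1 to 4 to 16 fragments per library, and Esrrb and Esr2 to at most 3.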

Other observations

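Some other transcripts with ties to these hormones are described here. They were chosen after their values were seen. Pgrmc1, a membrane heme-binding protein named for progesterone binding, was at 88.2 FPKM in control and 94.8 FPKM in BPA males, and at 97.01 FPKM in control and 103.8 FPKM in BPA females, and Pgrmc2 lay within 24.3 to 28.5 FPKM, beside at most 1.72 FPKM for Pgr. Their log2 differences between BPA and control were 0.10 and 0.04 (limma adjusted p 0.973 and 0.988). The growth inhibitor Rerg, a small GTPase that estrogen regulates in breast cells, is listed as 2 new gene models that summed to 8.35 FPKM in control and 7.48 FPKM in BPA males and to 7.88 and 5.15 FPKM in the females. The model with the higher level had a log2 difference of -0.45 (limma adjusted p 0.973). The other model had one of 0.22 (limma adjusted p 0.982). It was at 0.66 FPKM in control and 1.81 FPKM in BPA males, and at 1.35 and 0.89 FPKM in the females.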
